A study of Mus musculus with 6 samples.

Results

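The regulators described here are 8 genes that set how much fat and sterol the liver makes: Srebf1 and Srebf2, which encode the sterol regulatory element-binding proteins (SREBPs), Scap, Insig1 and Insig2, which control their release, Mlxipl and Mlx, which encode the carbohydrate-responsive factor ChREBP and its partner, and Nr1h3, which encodes the liver X receptor LXRα. They were chosen by gene symbol, and all 8 were found among the 23474 genes of the deposited table. Livers of male C57BL/6J mice were compared after a high-fat diet with 1.5% (w/w) Bangpungtongseong-san extract, a traditional herbal formula (BT, 3 libraries), and after the high-fat diet alone (HFD, 3 libraries). Both groups ate the high-fat diet for 12 weeks from 5 weeks of age and were 17 weeks old at sampling, and no lean group was among the libraries. The study placed 20 mice in 2 groups of 10, but whether each library came from a single mouse or from pooled mice is not stated. The p-values therefore describe spread among the sequenced libraries only, and part of it may be technical. The library codes in the labels differ by a letter between the diets, the meaning of that letter is not stated, and whatever it marks cannot be told apart from diet.

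SREBPs are made as precursors in the membrane of the endoplasmic reticulum. Scap escorts them to the Golgi, where a pair of proteases frees the active factor, while Insig proteins hold Scap back when sterols are plentiful. SREBP-1 mainly drives fatty acid synthesis and SREBP-2 mainly cholesterol synthesis and uptake. ChREBP binds DNA together with Mlx and responds to glucose, and LXRα responds to oxysterols and raises Srebf1 transcription in liver. Insig1 is itself a target of SREBPs, whereas in rodent liver an Insig2 transcript is known to be lowered by insulin. The libraries measured mRNA, so the cleaved and active forms of these proteins were not measured.

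Expression was given as FPKM, a fragment count scaled by transcript length and by library depth, which allows levels of different genes to be compared. Estimated depth was 13800000 to 15800000 fragments per library, a rough figure derived from the smallest values. Differences were tested with limma on log2(FPKM + 1), a scale that understates the change of low genes, with Benjamini-Hochberg adjustment over the 10476 genes that averaged 1 FPKM or more. A gene was called where adjusted p was under 0.05. All 8 regulators passed the filter on low values. Hepatocyte markers summed to 41834 to 45036 FPKM in BT libraries and 18103 to 49299 FPKM in HFD libraries. Of the 7 only Ttr, the transthyretin gene, was called, and it was lower, at 3003 to 3216 FPKM in BT libraries and 4539 to 5937 FPKM in HFD libraries. Cyp2e1 and Cps1, a cytochrome P450 and a urea cycle gene, were not called, although every BT library was above every HFD library. Cyp2e1 was at 8947 to 9411 FPKM in BT libraries and 5761 to 7481 FPKM in HFD libraries. Cps1 was at 174 to 225 FPKM in BT libraries and 102 to 156 FPKM in HFD libraries. Apoa1, an apolipoprotein gene, was not called either, and its BT libraries were all below its HFD libraries, at 4910 to 5427 and 6282 to 9069 FPKM. Alb, the albumin gene, is listed at 0 in HFD replicate 3 and at 22791 FPKM or more in the other libraries, so a listed 0 can be a failed estimate. None of the regulators is listed at 0 in any library.

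The genes of Srebf1 (chromosome 11, 60199089 to 60222581, minus strand), Insig1 (chromosome 5, 28071363 to 28078662, plus strand), Insig2 (chromosome 1, 121304353 to 121332589, minus strand) and Mlxipl (chromosome 5, 135089890 to 135138382, plus strand) are protein-coding genes of GENCODE M21 on GRCm38, a build that may not be the one used by the authors. RefSeq (GRCm38.p6) lists 15 promoter windows for the 8 regulators, each holding the 250 bases before a transcription start and 50 from its first base onward. Insig2 and Srebf1 have 3 windows each and Mlxipl has 2, and the deposited table holds 1 value per gene, so starts could not be told apart. The windows shown include those of the Insig pair, whose ratio differed most of the 5 tested. Also shown are the first window of Mlxipl, a gene called higher, and the third of Srebf1, 12110 bases downstream of its first start. Which start of Mlxipl rose is not known from these values. Capitals mark exact matches, on either strand, to an E-box (CACGTG, the letters bound by factors of the SREBP and ChREBP class), the NF-Y box (CCAAT), an Sp1 box (GGGCGG) and letters found in sterol regulatory elements (TCACCC).
Insig1, chr5:28071162-28071461, plus strand: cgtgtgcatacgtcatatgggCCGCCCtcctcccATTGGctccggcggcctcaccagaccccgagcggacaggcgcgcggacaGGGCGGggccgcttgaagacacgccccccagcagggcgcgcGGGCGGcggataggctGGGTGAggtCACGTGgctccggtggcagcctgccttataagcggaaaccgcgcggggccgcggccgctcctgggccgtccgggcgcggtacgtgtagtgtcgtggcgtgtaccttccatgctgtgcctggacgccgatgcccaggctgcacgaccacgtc
Insig2 start 1, chr1:121332540-121332839, minus strand: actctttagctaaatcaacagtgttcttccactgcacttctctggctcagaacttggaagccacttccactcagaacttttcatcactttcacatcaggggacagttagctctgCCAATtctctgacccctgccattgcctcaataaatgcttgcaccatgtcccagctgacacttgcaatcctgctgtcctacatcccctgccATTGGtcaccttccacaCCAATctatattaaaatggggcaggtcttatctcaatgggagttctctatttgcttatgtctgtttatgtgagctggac
Insig2 start 2, chr1:121327975-121328274, minus strand: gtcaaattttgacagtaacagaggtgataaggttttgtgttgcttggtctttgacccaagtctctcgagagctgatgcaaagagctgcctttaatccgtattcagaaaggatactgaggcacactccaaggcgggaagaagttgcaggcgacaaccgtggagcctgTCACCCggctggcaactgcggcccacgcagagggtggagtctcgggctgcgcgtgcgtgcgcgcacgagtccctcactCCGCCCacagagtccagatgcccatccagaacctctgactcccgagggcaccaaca
Insig2 start 3, chr1:121327629-121327928, minus strand: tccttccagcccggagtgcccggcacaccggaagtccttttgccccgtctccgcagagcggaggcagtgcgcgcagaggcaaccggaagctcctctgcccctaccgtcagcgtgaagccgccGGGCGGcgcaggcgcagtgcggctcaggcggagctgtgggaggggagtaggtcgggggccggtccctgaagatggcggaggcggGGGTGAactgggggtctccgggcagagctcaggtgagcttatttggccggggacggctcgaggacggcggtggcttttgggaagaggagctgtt
Mlxipl start 1, chr5:135089640-135089939, plus strand: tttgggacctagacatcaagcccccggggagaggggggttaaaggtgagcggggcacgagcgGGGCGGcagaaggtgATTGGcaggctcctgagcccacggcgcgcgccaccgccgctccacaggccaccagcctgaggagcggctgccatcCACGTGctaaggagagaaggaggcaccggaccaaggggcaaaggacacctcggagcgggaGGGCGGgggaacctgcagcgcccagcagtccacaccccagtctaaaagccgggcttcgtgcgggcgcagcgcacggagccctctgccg
Srebf1 start 3, chr11:60210422-60210721, minus strand: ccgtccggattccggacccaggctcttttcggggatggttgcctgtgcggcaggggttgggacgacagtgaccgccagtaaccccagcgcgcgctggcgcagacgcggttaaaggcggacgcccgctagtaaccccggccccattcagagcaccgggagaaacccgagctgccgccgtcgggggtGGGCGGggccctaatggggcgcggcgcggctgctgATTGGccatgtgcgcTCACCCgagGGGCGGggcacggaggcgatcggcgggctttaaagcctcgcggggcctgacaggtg

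The Insig1 window held an E-box, 3 Sp1 boxes, an NF-Y box and a TCACCC match on the opposite strand. In the Insig2 windows no E-box was found, the first held 3 NF-Y boxes, and those of starts 2 and 3 each held a TCACCC match and an Sp1 box. The third Srebf1 window held a TCACCC match, an NF-Y box and 2 Sp1 boxes. Of its windows not shown, the first held 1 NF-Y box and the second 3 Sp1 boxes. In the first Mlxipl window an E-box, an NF-Y box and 2 Sp1 boxes were found. The second Mlxipl window, 17001 bases downstream and near the starts of more GENCODE transcripts, held none of these motifs. E-boxes were found in 5 of the 15 windows, belonging to Mlxipl, Mlx, Insig1 and Scap, against 7.15% of all 32851 RefSeq windows. Windows of Scap and of Nr1h3 overlap each other in part, so the 15 share bases. The same E-box and an Sp1 box are counted in both Scap windows, and the same TCACCC match in both Nr1h3 windows. TCACCC was found in 7 of the 15 against 16.2% of all windows, the NF-Y box in 7 against 37.4% and the Sp1 box in 9 against 35.7%. None of these motifs overlapped another in the windows shown, and a match of letters is a description and not a bound site.

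Of the 8 regulators, 1 was higher and 1 lower with BT. Across all genes tested, 6.01% were called higher and 7.33% lower, 13.3% in either direction (630 and 768 genes, or 459 and 862 with median-of-ratios scaling), so with 8 genes the count of 2 is near the background. Insig2 was lower, at 0.471 times its HFD mean, and Mlxipl was higher, at 1.34 times its HFD mean. Srebf1 was higher in all BT libraries without passing the test, and the other 5 did not pass. The median change of the 8 was 0.13 on the log2 scale, against 0.07 over all genes tested. In 4 of the 8 the 3 BT libraries lay all above or all below the 3 HFD libraries, which was so for 39.3% of all genes tested.

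**Figure D1:**
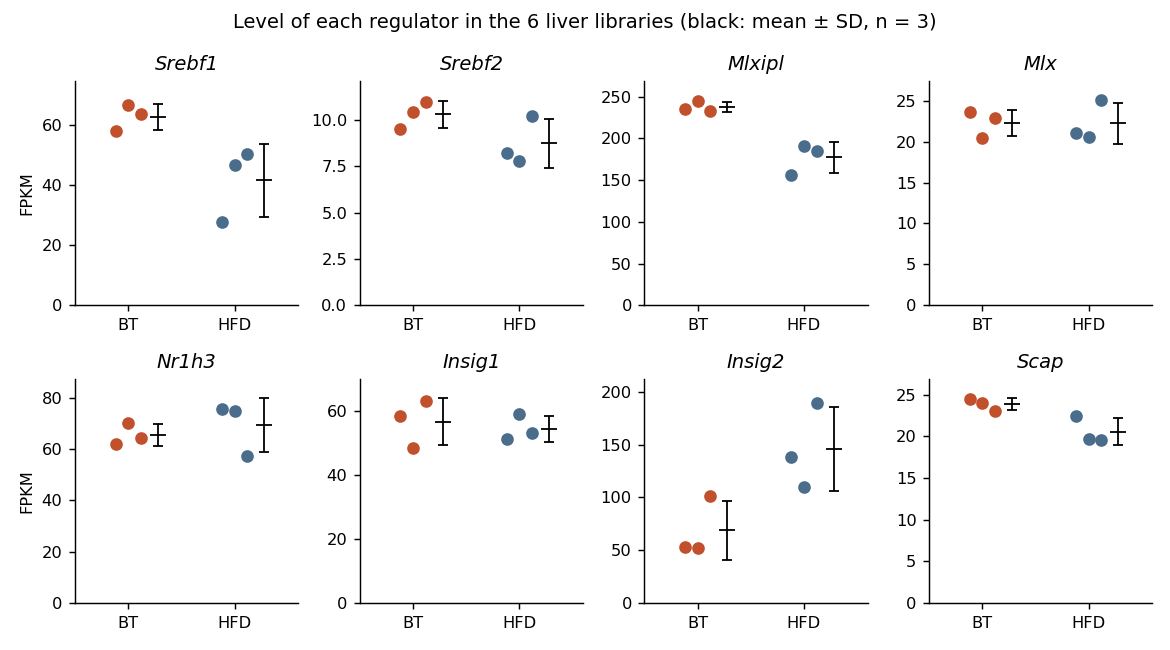
FPKM of each regulator (vertical axes, each from 0) in the 3 BT libraries (orange, left) and the 3 HFD libraries (blue, right), with the mean and SD in black. The groups do not overlap for Srebf1, Mlxipl, Insig2 and Scap, and they overlap for Srebf2, Mlx, Nr1h3 and Insig1.

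Insig2 encodes one of the proteins that retain the Scap and SREBP complex in the endoplasmic reticulum. Its level was 53.2, 51.7 and 101 FPKM in BT libraries 1 to 3, against 139, 110.1 and 189 FPKM in HFD libraries 1 to 3. BT replicate 3 lay close to HFD replicate 2, and the other BT libraries lay far below every HFD library. The mean was 68.7 ± 28.2 FPKM with BT and 146 ± 40.1 FPKM with HFD (SD, n = 3 each), and the log2 change was -1.11 ± 0.28 (SE, limma adjusted p = 0.0372, 95% interval -1.75 to -0.48). The call was lost when libraries were rescaled to one sum (-1.02, adjusted p = 0.0542), with robust empirical Bayes (0.0544), with no filter (0.0965) and without HFD replicates 1, 2 or 3 or BT replicates 1 or 2 (0.0624, 0.0594, 0.0765, 0.126 and 0.109), while without BT replicate 3 it was kept (-1.43, adjusted p = 0.014). The change was negative in all 17 alternative settings, from -1.43 to -0.91.

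Insig1, the close relative of Insig2, stood at 58.4, 48.6 and 63.2 FPKM in BT libraries, against 51.2, 59.0 and 53.3 FPKM in HFD libraries. The groups overlapped, and the change of 0.05 had an interval of -0.23 to 0.33 (limma adjusted p = 0.79). The direction of this small change turned with scaling, to -0.02 with median-of-ratios scaling. In BT libraries Insig2 was 0.91, 1.06 and 1.6 times Insig1, against 2.71, 1.87 and 3.55 times in HFD libraries. All BT ratios lay below all HFD ratios, with a difference of -1.16 on the scale of log2(FPKM + 1), which was used for every ratio tested. The exact two-sided permutation test gave p = 0.1, the smallest that 3 libraries against 3 allow, and 0.25 after adjustment over the 5 ratios tested. Insig2 thus made up 47.7% to 61.6% of the summed FPKM of both genes in BT libraries and 65.1% to 78.0% in HFD libraries.

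Scap encodes the sterol sensor that Insig proteins hold. Its level was 24.5, 24.0 and 23.0 FPKM in BT libraries, against 22.5, 19.6 and 19.6 FPKM in HFD libraries. Each BT library was above each HFD library, by a narrow margin over HFD replicate 1, and the change of 0.21 ± 0.10 did not pass (limma adjusted p = 0.188, 95% interval -0.02 to 0.44). A gene model of unclassified type on the opposite strand shares 13.2% of the exon bases of Scap, and no strand setting is given in the sources used here. Set against the sum of both Insig genes, Scap was at 0.22, 0.24 and 0.14 in BT libraries and at 0.118, 0.116 and 0.0808 in HFD libraries. This last ratio was chosen after the values were seen and was not tested. The planned ratio of Scap to Insig1 alone overlapped between the groups (exact permutation p = 0.5).

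**Figure D2:**
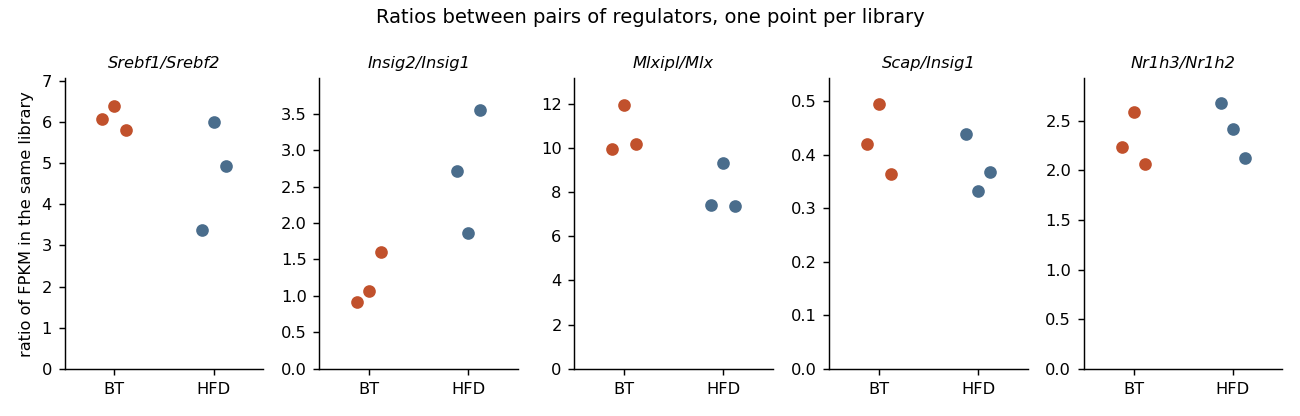
Ratio of FPKM of 2 genes in the same library (vertical axes, each from 0) in BT libraries (orange, left) and HFD libraries (blue, right). Insig2/Insig1 ran from 0.91 to 1.6 with BT and from 1.87 to 3.55 with HFD, and Mlxipl/Mlx was also apart, while the other 3 ratios overlapped.

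Srebf1 was at 57.9, 66.7 and 63.6 FPKM in BT libraries, against 27.6, 46.7 and 50.5 FPKM in HFD libraries. The BT libraries lay above all HFD libraries, and HFD replicate 1 was far below the other HFD libraries. The mean was 62.8 ± 4.44 FPKM with BT and 41.6 ± 12.2 FPKM with HFD (SD, n = 3 each), and the log2 change was 0.63 ± 0.21 (SE, limma adjusted p = 0.0764, 95% interval 0.16 to 1.09). It passed when libraries were rescaled to one sum (0.72, adjusted p = 0.0481), and without HFD replicate 1 the change was 0.36 (adjusted p = 0.065). HFD replicate 1 was also the only library in which the adipocyte markers Lep and Plin1 were above 0, at 0.723 and 0.399 FPKM, and Adipoq, the adiponectin gene, was at 1.4 FPKM there and at 0.198 FPKM or less in the other libraries. Retn, the resistin gene, was also highest there, at 0.479 FPKM. Cfd, the complement factor D gene and by far the most abundant of these markers, was not, at 193 FPKM there and 218 FPKM in BT replicate 1. Any part of these markers in the Srebf1 value was not tested.

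Srebf2, which encodes SREBP-2, was the lowest of the 8 regulators in both groups. It stood at 9.55, 10.4 and 11.0 FPKM in BT libraries, against 8.21, 7.78 and 10.2 FPKM in HFD libraries. HFD replicate 3 reached into the BT range, and the change of 0.22 did not pass (limma adjusted p = 0.256, 95% interval -0.07 to 0.51). Srebf1 exceeded Srebf2 6.07, 6.39 and 5.8 times in BT libraries and 3.37, 5.99 and 4.92 times in HFD libraries. These ratios overlapped (difference 0.40 on the log2 scale, exact permutation p = 0.2).

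Mlxipl was the most abundant of the 8 in both groups, with a mean level above that of 96.3% of the genes tested or equal to it. It was at 235, 245 and 233 FPKM in BT libraries, against 157, 192 and 185 FPKM in HFD libraries. The BT libraries were close together and all above the HFD libraries. The mean was 238 ± 6.18 FPKM with BT and 178 ± 18.6 FPKM with HFD (SD, n = 3 each), and the log2 change was 0.42 ± 0.11 (SE, limma adjusted p = 0.04, 95% interval 0.17 to 0.67). The call was lost with median-of-ratios scaling (0.35, adjusted p = 0.0953), with no filter (0.067) and without HFD replicates 1 or 3 or BT replicates 1, 2 or 3 (0.0545, 0.051, 0.134, 0.133 and 0.097). The change was positive in all 17 alternative settings, from 0.33 to 0.56.

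Mlx, which encodes the DNA-binding partner of ChREBP, was at 23.6, 20.5 and 22.9 FPKM in BT libraries, against 21.1, 20.5 and 25.1 FPKM in HFD libraries. The groups overlapped throughout, with a change of 0.01 whose interval ran from -0.26 to 0.27 (limma adjusted p = 0.97) and whose sign turned with median-of-ratios scaling (-0.06). Exons of Psmc3ip on the opposite strand share 19.3% of the exon bases of Mlx. Mlxipl was 9.96, 11.9 and 10.2 times Mlx in BT libraries and 7.42, 9.33 and 7.36 times Mlx in HFD libraries. The ratios did not overlap (difference 0.41 on the log2 scale, exact permutation p = 0.1, and 0.25 adjusted over the 5 ratios), and they did overlap once the dependence on transcript length and GC content was taken out library by library (0.26, exact permutation p = 0.3).

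Nr1h3 was at 62.1, 70.3 and 64.4 FPKM in BT libraries, against 75.8, 75.0 and 57.2 FPKM in HFD libraries. HFD replicate 3 was below every BT library and the other HFD libraries were above them. The change of -0.07 had an interval of -0.37 to 0.23 (limma adjusted p = 0.738), and its sign turned on rescaling to the same sum (0.02). Nr1h2, which encodes the sister receptor LXRβ, was at 27.8, 27.2 and 31.3 FPKM in BT libraries, against 28.3, 31.0 and 26.9 FPKM in HFD libraries. Nr1h3 was 2.24, 2.59 and 2.06 times Nr1h2 in BT libraries and 2.68, 2.42 and 2.13 times in HFD libraries (exact permutation p = 0.7). LXRα is also made by macrophages, and the summed level of 8 macrophage and Kupffer cell markers was 79.7 to 101 FPKM in BT libraries and 76.8 to 97.0 FPKM in HFD libraries, with none of the 8 called by limma.

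**Figure D3:**
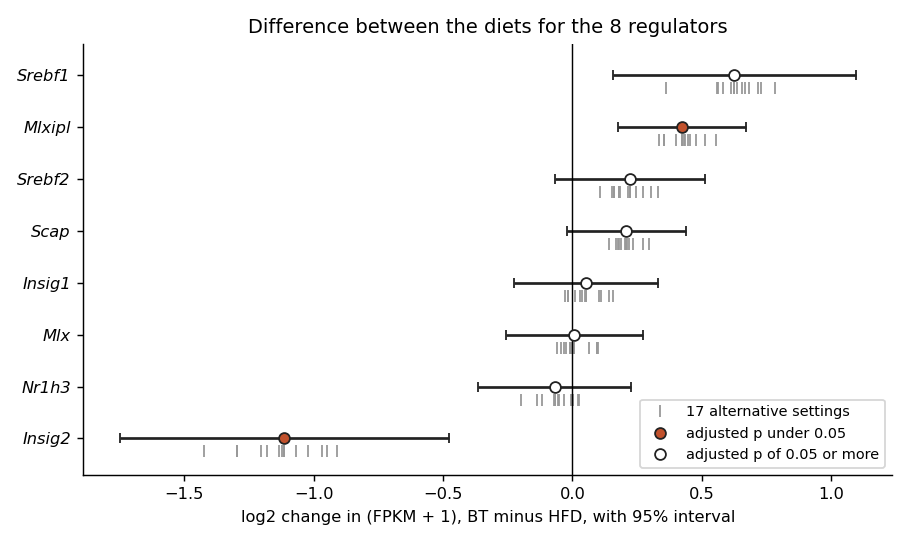
Log2 change in (FPKM + 1), BT minus HFD, of each regulator (horizontal axis) with its 95% interval from limma. Filled circles passed the test (Insig2 and Mlxipl), open circles did not, and grey ticks give the change under the 17 alternative settings.

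In order of level, Mlxipl came first in both groups and Insig2 second. With BT the libraries of Mlxipl and Insig2 were apart, and with HFD they overlapped. With BT the libraries of Insig2 overlapped those of Nr1h3, the next in order, and those of Nr1h3 overlapped those of Srebf1, and Srebf1 those of Insig1. With HFD Insig2 was apart from Nr1h3, and Srebf1 came after Insig1 and was apart from it. Scap and Mlx overlapped in both groups, and Srebf2 was last and apart from them in both.

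Changes varied with transcript length across the table. The median change was 0.20 for the 3713 tested genes whose longest annotated transcript is over 4 kb, 0.06 for the 4305 genes from 2 to 4 kb and -0.19 for the 2385 shorter genes. Srebf1, Srebf2 and Scap, at 4.3, 5.08 and 4.23 kb, belong to the longest class, so the changes of Srebf2 and Scap were close to the median of genes of their length. With the trend on length and GC content removed, the changes were 0.56 for Srebf1, 0.11 for Srebf2, 0.17 for Scap, 0.35 for Mlxipl and -1.20 for Insig2. Mlxipl and Insig2 passed in that setting (limma adjusted p = 0.0474 and 0.0322).

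The genes whose profile over the 6 libraries was most like that of Srebf1 were Vwce, Mast3 and Abcb1a, with root mean square differences of 0.0825, 0.113 and 0.114 on the log2 scale after each gene's mean was subtracted. Vwce, a von Willebrand factor domain gene, was at 15.0, 16.7 and 15.9 FPKM in BT libraries, against 7.49, 10.7 and 13.2 FPKM in HFD libraries, with the lowest value in HFD replicate 1 as for Srebf1. Abcb1a, which encodes a drug efflux pump, rose by 0.75 (limma adjusted p = 0.0316), and Mast3, a kinase gene, differed by 0.46 (adjusted p = 0.0981). Nearest to Mlxipl were Parp16, Jak3 and Atg2a, with differences of 0.0193, 0.0341 and 0.0438. Parp16 stood at 13.6, 14.1 and 13.4 FPKM in BT libraries, against 8.98, 11.0 and 10.3 FPKM in HFD libraries, and rose by 0.41 (limma adjusted p = 0.0431). Jak3, a cytokine receptor kinase gene, rose by 0.44 (adjusted p = 0.0445) and Atg2a, an autophagy gene, differed by 0.36 (adjusted p = 0.0767). Of the 6 fits that left out 1 library, Parp16 kept its call only without HFD replicate 2, Jak3 only without HFD replicate 3, and Abcb1a only without HFD replicates 1 or 3 (highest adjusted p = 0.142, 0.149 and 0.0981). These genes were picked for their likeness to the regulators, so their direction is no separate result.

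Partners of the regulators were 22 genes, all tested: the SREBP proteases, ubiquitin ligases and other proteins of the Insig and Scap step, coat proteins, receptor partners and cofactors. None was called by limma in either direction, and 6 had an unadjusted p under 0.05, which is 27.3% of them against 32.4% of all genes tested. Without HFD replicate 1, 2 of the 22 passed, against 1365 of all 10476 genes in that fit. Their median change was 0.21 and 19 were positive, while over all genes tested the median was 0.07 and 6201 of 10476 were positive. Sp1, a cofactor of SREBPs, was at 4.78, 5.31 and 5.41 FPKM in BT libraries, against 3.84, 3.58 and 4.17 FPKM in HFD libraries (0.34, limma adjusted p = 0.0767), and its change was 0.06 with the length and GC trend removed. Nfya, a subunit of the cofactor NF-Y, differed by 0.38 (adjusted p = 0.0944).

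Among targets of SREBP-1 in fatty acid synthesis, 6 of 15 tested genes were lower and none higher with BT, against 7.33% lower of all genes tested, and the median change was -0.35. Srebf1 itself was not called (limma adjusted p = 0.0764). Its BT libraries lay above all HFD libraries, as did those of 2430 of the 10476 genes tested. Elovl5, a fatty acid elongase gene, was at 203, 214 and 266 FPKM in BT libraries, against 408, 370.4 and 542 FPKM in HFD libraries. Scd1, the main desaturase gene of liver, was at 822, 809 and 1081 FPKM in BT libraries, against 2099.5, 1238 and 1958 FPKM in HFD libraries. Me1, which supplies NADPH, was at 52.5, 53.1 and 53.7 FPKM in BT libraries, against 89.4, 62.8 and 91.6 FPKM in HFD libraries. In these genes the groups did not overlap, and the changes were -0.94, -0.94 and -0.59 (limma adjusted p = 0.0144, 0.0282 and 0.0377). Acacb, Fads1 and Slc25a1, genes of an acetyl-CoA carboxylase, a desaturase and the citrate carrier, fell by 0.54, 0.44 and 0.35 (adjusted p = 0.0338, 0.0366 and 0.0463).

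Of the other SREBP-1 targets, the 2 with the smallest p lay on opposite sides. Fads2, a desaturase gene like Fads1, was at 261, 277 and 308 FPKM in BT libraries, against 180.2, 155 and 259 FPKM in HFD libraries, and differed by 0.54 (limma adjusted p = 0.0805). Fasn, the fatty acid synthase gene, was at 39.3, 47.7 and 43.5 FPKM in BT libraries, against 49.6, 72.4 and 98.5 FPKM in HFD libraries, and differed by -0.69 (adjusted p = 0.0676). It passed with median-of-ratios scaling (-0.76, adjusted p = 0.0472), with the length and GC trend removed (-0.92, 0.0239) and without HFD replicate 1 (-0.95, 0.0145), and its change was -0.46 without HFD replicate 3. Fads2 passed without HFD replicate 3 (0.75, adjusted p = 0.0178). Scd2 and Pnpla3 lay under the filter, at 0.583 to 0.842 and 0.0924 to 0.116 FPKM in BT libraries and 0.647 to 1.05 and 0.0765 to 0.249 FPKM in HFD libraries. All 6 SREBP-1 calls were lost without BT replicate 1 and without BT replicate 2, and each of the other libraries ended 3 to 5 of them. After rescaling to the same sum 1 of the 15 passed, against 1179 of all 10476 genes. Quantile normalization left 3, against 1570 of 10476, and with no filter 1 passed, against 545 of 17095. Slc25a1 was at -0.13 with the length and GC trend removed (adjusted p = 0.435).

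Targets of SREBP-2 had 4 genes lower and 1 higher among 22 tested, against 7.33% lower and 6.01% higher of all genes tested, with a median change of -0.06. Fdps, the farnesyl diphosphate synthase gene, was at 47.9, 44.1 and 46.4 FPKM in BT libraries, against 69.2, 119 and 96.3 FPKM in HFD libraries (-0.99, limma adjusted p = 0.0149), and other annotated exons share 26.7% of its exon bases. Hmgcs1, at the entry of the sterol pathway, fell by 0.73, and Pmvk and Nsdhl, further along it, fell by 0.62 and 0.58 (adjusted p = 0.0213, 0.0191 and 0.0191). Other exons also share 12.1% of the exon bases of Hmgcs1. Stard4, a sterol transport gene, rose by 0.50, to 18.9, 14.5 and 16.7 FPKM in BT libraries, against 12.2, 11.7 and 10.4 FPKM in HFD libraries (adjusted p = 0.0372). Acat2 and Ebp, both genes of sterol synthesis, differed by -0.35 and -0.41 (adjusted p = 0.0541 and 0.0569). All 5 calls were lost without BT replicate 1 and without BT replicate 2, 3 of them without HFD replicate 2, and that of Stard4 also without BT replicate 3 or HFD replicate 3. With no filter 3 genes of the list passed, against 545 of all 17095 genes. Likewise 3 passed with the length and GC trend removed, against 949 of 10403. In that setting Pmvk was at -0.34 (limma adjusted p = 0.073) and Stard4 at 0.30 (adjusted p = 0.195).

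Of 12 ChREBP targets 3 were lower and none higher, against 7.33% lower and 6.01% higher of all genes tested, while Mlxipl was higher. The median change was -0.24. Changes of the 12 ran from -1.87 to 0.31, with 4 positive and 8 negative, against 6201 positive of 10476 genes tested. Fgf21, a hormone gene, was at 2.95, 4.89 and 6.45 FPKM in BT libraries, against 15.2, 22.0 and 21.9 FPKM in HFD libraries (-1.87, limma adjusted p = 0.00612). Gpd1, which makes glycerol 3-phosphate, was at 18.6, 19.3 and 20.9 FPKM in BT libraries, against 37.4, 40.2 and 32.7 FPKM in HFD libraries (-0.87, adjusted p = 0.00629). Both kept their call in all 6 fits that left out 1 library, and other exons share 13.0% of the exon bases of Gpd1. Khk, the fructokinase gene, fell by 0.51 (adjusted p = 0.0294), a call lost without BT replicates 1, 2 or 3 or HFD replicate 2 (highest adjusted p = 0.115), with no filter (0.061) and after removal of the length and GC trend (-0.26, adjusted p = 0.109). Txnip, a glucose-responsive gene often used as a readout of ChREBP, was at 75.5, 85.9 and 79.5 FPKM in BT libraries, against 103, 99.1 and 97.3 FPKM in HFD libraries (-0.31, adjusted p = 0.062, with 19.4% of exon bases shared).

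LXR targets moved in both directions, with 2 higher and 1 lower of 12, against 6.01% higher and 7.33% lower of all genes tested, and a median change of 0.09. Abcg8 and Abcg5, which together export sterols into bile, rose by 0.95 and 0.66 (limma adjusted p = 0.00306 and 0.00828). Abcg8 was at 37.4, 42.2 and 41.0 FPKM in BT libraries, against 20.6, 19.1 and 21.1 FPKM in HFD libraries. Both kept their call in all 6 fits that left out 1 library. Pltp, a phospholipid transfer protein gene, fell by 0.81 (adjusted p = 0.0242, with 19.3% of exon bases shared), a call lost without BT replicates 1 or 2 or HFD replicates 2 or 3 (highest adjusted p = 0.0945) and with no filter (0.0657). Cyp7a1, the first enzyme of bile acid synthesis, and Abca1, a cholesterol efflux gene, differed by 0.67 and 0.58 (adjusted p = 0.0634 and 0.076).

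**Figure D4:**
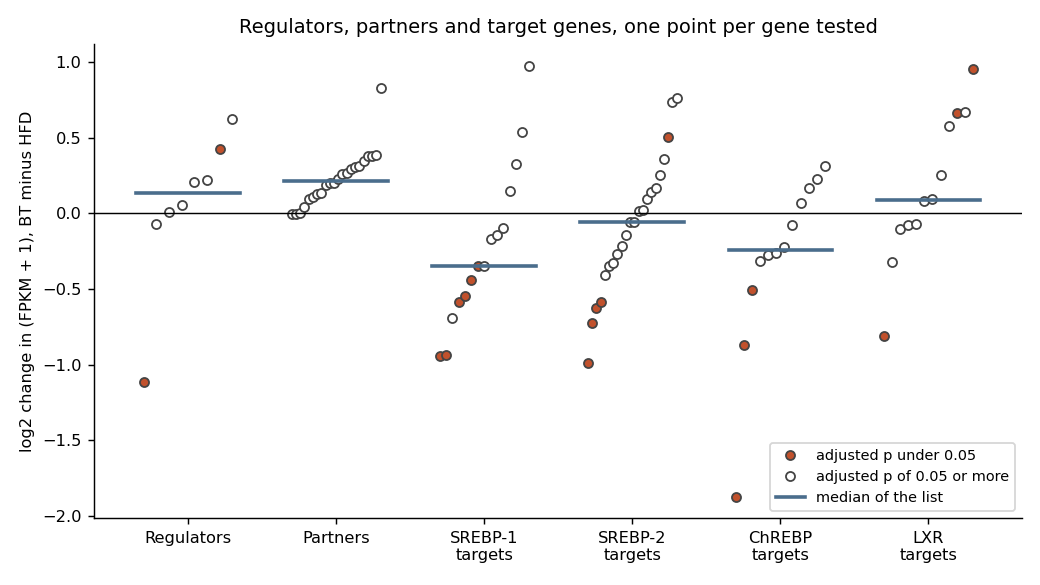
Log2 change in (FPKM + 1), BT minus HFD (vertical axis), of each tested gene among the regulators, their partners and the targets of SREBP-1, SREBP-2, ChREBP and LXR. Filled circles passed the test and blue bars are medians, which were 0.13, 0.21, -0.35, -0.06, -0.24 and 0.09 from left to right.

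Markers of other cell types were summed per library beside these values. Stellate cell and fibroblast markers summed to 70.8 to 92.8 FPKM in BT libraries and 96.3 to 153 FPKM in HFD libraries, with 1 of 6 tested genes lower, Col3a1. Endothelial markers summed to 18.7 to 22.0 FPKM in BT libraries and 14.8 to 24.2 FPKM in HFD libraries, and lymphocyte markers to 5.53 to 11.4 FPKM in BT libraries and 4.04 to 5.93 FPKM in HFD libraries. Bile duct markers summed to 46.2 to 61.0 FPKM in BT libraries and 51.6 to 113 FPKM in HFD libraries. Nearly all of that sum was Spp1, the osteopontin gene, at 43.8 to 59.0 FPKM in BT libraries and 48.9 to 109 FPKM in HFD libraries. Of 5 pancreas markers 4 are listed at 0 in all libraries, and the other, Cela1, was called lower, at 2.45 to 4.09 FPKM in BT libraries and 5.09 to 6.25 FPKM in HFD libraries. Adipocyte markers summed to 144 to 218 FPKM in BT libraries and 54.9 to 196 FPKM in HFD libraries, nearly all of it Cfd, which encodes complement factor D. Their part in the results was not tested, and in bulk tissue fewer cells of a type and less RNA per cell cannot be told apart.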

How the data were processed

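Liver RNA was measured by sequencing of TruSeq libraries, per the labels' protocols. The authors deposited FPKM per Ensembl mouse gene in a single table with 1 column per library, and all 6 columns were used. CASAVA 1.8.2, STAR 2.4.0 and Cufflinks 2.1.1 are named, with no role or order, per the submitters' processing notes, while for the build, annotation and strandedness the sources used here give nothing. GENCODE M21 (GRCm38) named 22671 of 23474 identifiers. Groups came from the sample titles.

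Values were analysed as log2(FPKM + 1) with limma 3.58.1 in R 4.3.3 (lmFit, eBayes with a variance trend), two-sided, with Benjamini-Hochberg adjustment over 10476 genes averaging 1 FPKM or more and a threshold of 0.05. The code was tested on simulated data. Ratios between members were tested by exact permutation of log2((FPKM + 1)/(FPKM + 1)) per library, while the ratios printed are of FPKM. Figures used matplotlib 3.10.9.

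Members, gene lists and tests were chosen with earlier results of these data known. Text names every member, called genes of each list (at most 8), the 2 uncalled genes of each list with the smallest p, and the 3 genes most like Srebf1 and Mlxipl. One gene that this rule picks is not reported here. Markers, Nr1h2, Scd2, Pnpla3 and Psmc3ip are named besides. Depth was estimated from FPKM times kilobases in genes with 1 transcript over 1000 bases, as the median of values between 0.03 and 0.1. Alternatives were other pseudocounts, filters, scalings and variance models, a fit blocked on replicate number, and fits without each library in turn.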

Additional observations from a re-analysis of the deposited data

How the results depend on the processing

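Counts of called genes stayed within 1.5 times the 1398 reported in every alternative run except the following. With no filter on low values 545 genes were called, and leaving out 1 library each gave 173 to 1536 (621 without HFD replicate 2, 173, 324 and 589 without BT replicates 1, 2 and 3). Median-of-ratios scaling gave 459 higher and 862 lower, against 630 and 768. Among the 8 regulators 2 were called as reported, 0 with no filter, 1 with median-of-ratios scaling, 1 with robust empirical Bayes, and 0 to 1 without 1 library. Small changes turned sign. Mlx, at 0.01, was -0.059 with median-of-ratios scaling, -0.0022 with quantile normalization, -0.010 with array weights and -0.045 to 0.094 without 1 library. Nr1h3, at -0.07, was 0.022 with the same library sum, 0.024 with the length and GC trend removed and -0.199 to 0.00076 without 1 library. Insig1, at 0.05, was -0.017 with median-of-ratios scaling, -0.019 with the length and GC trend removed and -0.029 to 0.157 without 1 library. Of 695 values of named genes under alternatives, 547 kept direction and side of the threshold, 111 lost a call, 24 gained one and 13 turned sign. The cause of these shifts was not tested.

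The labels do not say that replicate numbers pair the libraries. Correlations of deviations from the group means were 0.163, 0.0972 and 0.147 for libraries of the same number, and each library correlated best with its own number, a hint from the data and not from the design. With a replicate block 1808 genes and 3 regulators were called, Srebf1 among them (adjusted p = 0.0311).

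An estimated 13800000 to 15800000 fragments per library leave low genes with the largest counting error. With 3 libraries per diet, a call near the threshold can rest on single libraries. Gene-level FPKM does not separate transcript starts or isoforms.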
